A study of Mus musculus with 12 samples.

Results

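The dermal papilla signature genes were 8 genes used as marks of the dermal papilla, namely Corin, Crabp1, Sox2, Sox18, Prdm1, Vcan, Alpl and Inhba. They were taken by name, as every probe whose gene name in the array files is one of the 8, which gave 12 of 41174 probes and 8 of 27373 gene names. Vcan has 5 probes and each other gene has 1. The arrays measured RNA of whole back skin of male C57BL/6J mice, 8 weeks old, whose shaved backs received 200 µL per day of 3% MXD (minoxidil, the positive control), 10% N-CE (an extract of Notocactus ottonis cells) or VC, the vehicle control of propylene glycol, ethanol and water. Application started on the day after shaving and skin was taken after 1, 2 or 3 weeks (1W, 2W and 3W), so shaving is common to all groups. The RNA of the 6 mice of a group made 1 pool. A treated pool and the VC pool of that week were read together on a pair of arrays that differ in which pool carried Cy3 and which Cy5 (a dye swap), so 6 comparisons rest on 12 arrays. No group has a biological replicate, every SD below is over readings of the same pools, and the MXD and N-CE comparisons of a week share their VC pool and their slide.

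The dermal papilla is the cluster of mesenchymal cells at the base of the hair follicle. It signals to the overlying matrix cells, which divide and form the hair shaft, and it enlarges in the growing phase (anagen) and shrinks again when growth ends. Corin is a serine protease of papilla cells that limits agouti signaling to pigment cells. Sox2 and Sox18 are transcription factors, and Prdm1 encodes the repressor Blimp1. Crabp1 binds retinoic acid inside the cell, Vcan encodes the matrix proteoglycan versican, Alpl encodes tissue-nonspecific alkaline phosphatase, and Inhba encodes the subunit of activin A. Several of them are also used by other cells of the skin, Sox18 by endothelium and Prdm1 by sebaceous gland and plasma cells for example. In whole skin, fewer papilla cells and less RNA per papilla cell cannot be told apart.

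The 250 bases before the start site of Corin, Inhba and Vcan are shown because these were the members with a probe that passed the call rule in a comparison. They are RefSeq sequences on GRCm38.p6 in the direction of the gene, from chr5:72504541-72504790 (minus strand), chr13:16011601-16011850 (plus strand) and chr13:89742513-89742762 (minus strand). Capitals mark CTTTG followed by A or T and once more by A or T, on either strand, a core that transcription factors of the TCF and LEF family recognize.
Corin: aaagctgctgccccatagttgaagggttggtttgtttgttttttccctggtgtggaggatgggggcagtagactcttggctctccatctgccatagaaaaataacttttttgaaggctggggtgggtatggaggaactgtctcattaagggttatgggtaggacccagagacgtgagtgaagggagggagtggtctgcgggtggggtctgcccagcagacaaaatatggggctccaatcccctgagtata
Inhba: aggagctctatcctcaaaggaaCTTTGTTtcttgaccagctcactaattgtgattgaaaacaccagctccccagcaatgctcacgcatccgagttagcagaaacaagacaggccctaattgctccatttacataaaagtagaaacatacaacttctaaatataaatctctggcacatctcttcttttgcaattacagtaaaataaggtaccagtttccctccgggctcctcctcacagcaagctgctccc
Vcan: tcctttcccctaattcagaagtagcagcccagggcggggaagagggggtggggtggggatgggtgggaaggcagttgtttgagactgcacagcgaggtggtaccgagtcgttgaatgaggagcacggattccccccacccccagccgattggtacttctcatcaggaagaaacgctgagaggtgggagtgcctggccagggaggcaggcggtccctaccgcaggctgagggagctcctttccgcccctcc
The Inhba window held 1 match, which begins 228 bases before the start site. The windows of Corin and Vcan held 0 matches. Of all 32851 promoter windows of this length, 14.8% held at least 1 match. Of the 7 members with a window in the RefSeq table, 2 held one, Inhba and Sox2. A match is a run of letters and was not tested as a binding site.

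The array files held between 57.0% and 69.6% of the 43379 transcript spots well above background per channel, and 0 spots were saturated. Keratinocyte and dermal genes that define skin were detected, as all 10 of them (Krt5, Krt14, Krt1, Krt10, Lor, Flg2, Col1a1, Col1a2, Col3a1 and Dcn) were well above background on arrays of both treatments. Among the members, the brightest probes of Crabp1, Sox18, Vcan and Inhba were above background in 24 of 24 channels, and that of Prdm1 in the 22 channels whose spot was kept. The Corin and Alpl probes were above background in 22 of 24 channels. Sox2 was above background in 1 of 24 channels, so no level of Sox2 can be given. The set could thus be followed by 7 genes in all comparisons, and whole skin gives no level for the papilla itself.

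A gene was called when the error-model P of the array software was under 0.01 on both arrays of the dye swap in the same direction and the geometric mean fold was above 1.5 (0.58 on the log2 scale) or below 0.75 (-0.42). That P describes the spot and not the mice. Each gene was represented by its brightest probe. By this rule 1 member was called lower in N-CE 1W and 1 was called higher in MXD 2W, and the remaining 4 comparisons had 0 called members. In MXD 1W, 0 of 8 measured members were called, where 1.25% of 18566 genes were called higher and 1.26% lower. In N-CE 1W, 1 of 7 was called lower, where 2.78% of 18252 genes were called lower and 0.542% higher. In MXD 2W, 1 of 7 was called higher, where 6.21% of 18770 genes were called higher and 10.0% lower. In N-CE 2W, 0 of 7 were called, beside 0.118% higher and 0.0749% lower of 18692 genes. In MXD 3W, 0 of 7 were called, beside 0.292% higher and 0.286% lower of 17453 genes. In N-CE 3W, 0 of 7 were called, beside 0.207% higher and 0.213% lower of 18803 genes. Counts of 0 and 1 among 7 or 8 genes are too few to set the members apart from these shares.

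The median log2 fold over the measured members was 0.21 ± 0.10 (SD over the 2 arrays' medians) in MXD 1W, 0.20 ± 0.05 in MXD 2W and -0.09 ± 0.23 in MXD 3W. The MXD 1W median counts Sox2, and it was 0.28 over the 7 members above background in both groups on both arrays. The N-CE comparisons had member medians of -0.19 ± 0.02 (1W), 0.19 ± 0.11 (2W) and 0.04 ± 0.24 (3W). The median over all measured genes lay between -0.01 and 0.03 in the 6 comparisons. At 1W, 4 of 8 measured members were above VC on both MXD arrays and 3 were below VC on both. In N-CE 1W 6 of 7 were below VC on both arrays and 0 were above on both. The 6 include Corin and Alpl, whose N-CE pool was above background on 0 and 1 of 2 arrays. The share of all genes on the same side of VC on both arrays was not counted, so these counts do not set the members apart. The member medians of MXD 2W and N-CE 2W were close to each other, although the single genes behind them differed, as given below.

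**Figure D1:**
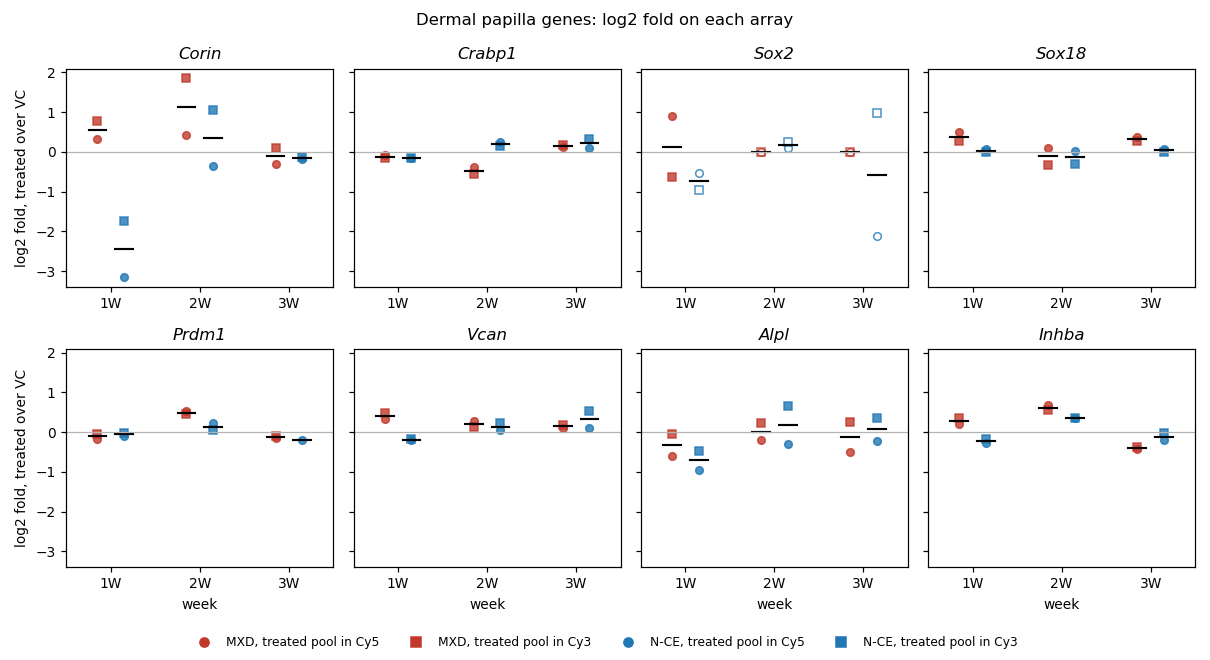
Log2 fold of treated over VC (vertical axis) at 1W, 2W and 3W (horizontal axis) for the brightest probe of each dermal papilla gene, with circles for the array with the treated pool in Cy5, squares for the exchanged dyes, black bars for their mean and open symbols where neither group was above background. Corin spans from -3.14 to 1.85, while the folds of Crabp1, Sox18, Prdm1, Vcan and Inhba stay between -0.56 and 0.69.

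Corin showed the widest range of the members. Its probe lies at chr5:72692288-72692347 on mm9, and its exon or UTR position was not analysed here. In N-CE 1W the log2 folds were -3.14 and -1.75 on the 2 arrays, a mean of -2.44 ± 0.99 (SD, n = 2 arrays). The VC pool was above background on both arrays and the N-CE pool on 0 of 2, so the fold is a bound, and Corin was at least 1.5-fold lower. That bound was taken from levels after another background correction (normexp with loess). These gave a log2 fold of -0.58 ± 0.23, so the bound and this fold are the same reading. The call was lost when both groups had to be above background on both arrays.

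In MXD 1W the Corin log2 folds were 0.31 and 0.79 (mean 0.55 ± 0.34), and in MXD 2W they were 0.41 and 1.85 (mean 1.13 ± 1.01). Both comparisons were above VC on both arrays, yet neither was called, because P was 0.174 at 1W and 0.0491 at 2W on the array with the treated pool in Cy5. In N-CE 2W the 2 arrays disagreed in sign, with -0.34 and 1.04. At 3W the log2 folds were -0.29 and 0.11 in MXD and -0.18 and -0.13 in N-CE, and the readings lay close to VC.

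The Corin ratio depended on the dye. In 6 of 6 comparisons the array with the treated pool in Cy3 gave the higher log2 fold, by 0.05 to 1.43 and by 0.86 on average. This average includes N-CE 1W with a gap of 1.39, where the N-CE pool was above background on 0 of 2 arrays. There the SD over the 2 arrays was 0.99, and 0.23 with normexp and loess. All gaps given here are from the ratios of the array software, and they were not counted with normexp and loess. Of 16418 genes measured in all comparisons, 29.3% had a gap of the same sign in all 6, but only 0.219% (36 genes, Corin included) had a mean gap at or above that of Corin. Alpl had the same sign in 6 of 6 with a mean gap of 0.63, and Sox18 the opposite sign in 6 of 6 with -0.20. The mean over the dye swap cancels such a gap only where the dye bias is equal on both arrays, which was not tested. A single array does not cancel it. The mean gap of Inhba was 0.06 and that of Crabp1 was -0.01.

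The level of Corin also varied with the week in the VC pools. Levels here are log2 signals of 1 channel after normexp correction and normalization between channels and arrays, and they compare pools for the same probe only. In VC the 4 readings ranged from 6.87 to 7.12 (1W), 6.98 to 7.65 (2W) and 7.89 to 8.12 (3W), so the 1W and the 3W readings did not overlap. The order from the highest mean was MXD 2W (8.26 ± 0.38), VC 3W (8.01 ± 0.11), MXD 3W (8.00 ± 0.16), N-CE 3W (7.81 ± 0.07), N-CE 2W (7.54 ± 0.18), VC 2W (7.39 ± 0.31), MXD 1W (7.18 ± 0.17), VC 1W (6.96 ± 0.11) and N-CE 1W (6.41 ± 0.05). The readings of N-CE 1W lay below all readings of VC 1W, the next group in the order. Other neighbors in the order overlapped, except MXD 3W with N-CE 3W and N-CE 3W with N-CE 2W. Each week was hybridized on its own slide, so week and slide cannot be told apart. This holds for the VC levels of all members below. The share of all genes whose VC readings differ between weeks in this way was not counted, so the VC levels do not set the members apart.

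**Figure D2:**
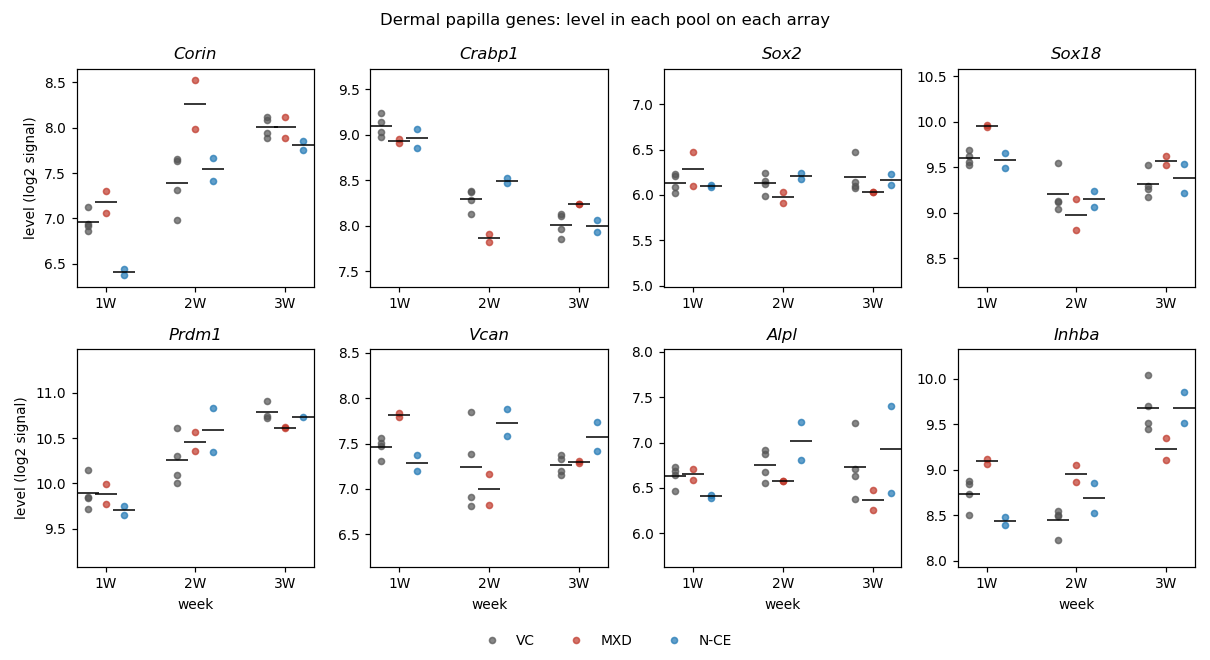
Level of the brightest probe of each dermal papilla gene (log2 signal of 1 channel after normexp correction, vertical axis, each panel spanning the same range around its own middle) at 1W, 2W and 3W (horizontal axis) in the VC, MXD and N-CE pools, with points for single readings and bars for their mean. Corin in VC goes from 6.96 at 1W to 8.01 at 3W, and Crabp1 from 9.10 to 8.01. Sox2 was above background in 1 of 24 channels, so its group means of 5.97 to 6.28 are not read as levels.

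The genes whose log ratios over the 12 arrays were most like those of Corin, among 14617 genes above background in all channels, were Zwilch (Pearson r = 0.988), Rspo2 (r = 0.985) and Melk (r = 0.985). Rspo2 encodes an R-spondin that strengthens Wnt signaling, and Zwilch and Melk encode proteins of dividing cells. The 12 points share slides, VC pools and the dye gap, which was also above 0 on average for these genes, at 0.35 for Zwilch and 0.49 for Rspo2 and Melk. Over the 6 dye-swap means r was 0.990, 0.994 and 0.988. These r come from the arrays that chose the genes and are no separate support. They also include the N-CE 1W fold of Corin, which came from a pool below background. In N-CE 1W the log2 fold was -0.72 ± 0.32 for Zwilch, -0.79 ± 0.39 for Rspo2 and -1.18 ± 0.34 for Melk. In MXD 2W it was 0.81 ± 0.39, 0.93 ± 0.62 and 0.79 ± 0.55.

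Inhba was the only member called in MXD 2W. Its probe lies at chr13:16118634-16118693 on mm9. In MXD 2W the log2 folds were 0.69 and 0.55 with P of 0.00131 and 0.00937, a mean of 0.62 ± 0.10 or a fold of 1.54. In N-CE 2W they were 0.35 and 0.36 (mean 0.35 ± 0.00), which did not pass the call rule. In MXD 1W they were 0.20 and 0.36, and in N-CE 1W -0.28 and -0.18. At 3W both MXD arrays lay below VC, at -0.43 and -0.38 (mean -0.41 ± 0.03, not called), and N-CE gave -0.21 and -0.02. The MXD 2W value lies near the limit of the rule, since normexp with loess gave 0.46 ± 0.14, under the fold limit, so that Inhba was then not called.

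In VC, Inhba readings ranged from 8.50 to 8.88 (1W), 8.22 to 8.55 (2W) and 9.45 to 10.04 (3W), so the 3W readings were above those of both earlier weeks. The MXD 2W readings of 8.86 and 9.05 were above all 4 readings of VC 2W. The MXD 3W readings of 9.10 and 9.35 were below all 4 of VC 3W. In order, N-CE 3W (9.68 ± 0.24) and VC 3W (9.68 ± 0.26) overlapped, as did MXD 3W (9.23 ± 0.17) and MXD 1W (9.09 ± 0.04), MXD 2W (8.96 ± 0.13) and VC 1W (8.74 ± 0.17), VC 1W and N-CE 2W (8.69 ± 0.23), N-CE 2W and VC 2W (8.44 ± 0.15), and VC 2W and N-CE 1W (8.44 ± 0.06). VC 3W did not overlap with MXD 3W, nor MXD 1W with MXD 2W.

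Over the 12 arrays the log ratios most like those of Inhba were those of Fbln7 (Pearson r = 0.958), a fibulin of the extracellular matrix, Ptpre (r = 0.950), a protein tyrosine phosphatase, and Tbx6 (r = 0.944), a T-box transcription factor. Over the 6 dye-swap means r was 0.967, 0.987 and 0.966, again from the arrays that chose the genes. The log2 folds of Fbln7 were 0.83 ± 0.04 in MXD 2W and -0.40 ± 0.06 in MXD 3W, with 0.20 ± 0.03 in N-CE 2W.

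The other genes of the activin pathway were given by a list of 15, all measured, that covers the remaining inhibin subunits, the activin-binding follistatins, the receptors and the Smad proteins. In MXD 2W, 2 were called higher and 2 lower. Bambi, a decoy receptor, was higher with 1.18 ± 0.19 and Smad7, an inhibitory Smad, with 1.16 ± 0.17. Fstl1, a follistatin-like protein, was lower with -0.83 ± 0.26 and Acvr1c, a type I receptor, with -0.87 ± 0.14. In N-CE 1W Bambi was the single gene called, lower with -1.26 ± 0.10. In MXD 1W, N-CE 2W, MXD 3W and N-CE 3W, 0 of 15 were called. The list median was 0.12 ± 0.17 in MXD 2W and -0.10 ± 0.09 in N-CE 1W.

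Vcan had 2 probes that were above background in 24 of 24 channels. The brightest one lies at chr13:89796864-89796923 on mm9. The second, at chr13:89865266-89871120, spans 5855 bases where the other member probes span 59 or 60, so it crosses at least 1 intron. The other 3 Vcan probes were above background in 0, 0 and 3 of 24 channels and are not read further. Which versican transcript each probe detects was not analysed here.

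In MXD 1W the brightest Vcan probe gave 0.34 and 0.48 (mean 0.41 ± 0.10) and was not called. The second probe gave 0.78 and 0.63 (mean 0.70 ± 0.11, P of 0.000427 and 0.00405) and was called higher, so both probes were above VC on both arrays and differed in the call. In N-CE 1W both probes were below VC on both arrays, at -0.19 ± 0.02 for the brightest and -0.40 ± 0.17 for the second. In MXD 2W they gave 0.20 ± 0.11 and 0.56 ± 0.36, and in N-CE 2W 0.14 ± 0.11 and 0.10 ± 0.12. In MXD 3W they gave 0.14 ± 0.06 and 0.09 ± 0.32, and in N-CE 3W 0.33 ± 0.30 and 0.60 ± 0.06, none of them called. With normexp and loess the second probe gave 0.48 ± 0.09 in MXD 1W, under the fold limit.

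**Figure D3:**
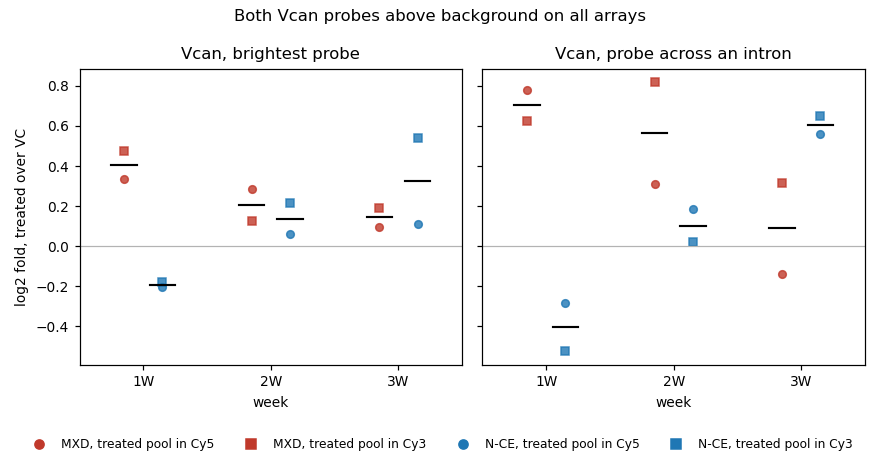
Log2 fold of treated over VC (vertical axis) at 1W, 2W and 3W (horizontal axis) for the Vcan probes above background on all arrays, with circles and squares for the arrays of a dye swap and black bars for their mean. At 1W both probes are above 0 in MXD (0.41 and 0.70) and below 0 in N-CE (-0.19 and -0.40).

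The VC pool of 2W was read differently by the brightest Vcan probe on the MXD and the N-CE arrays, with means of 6.86 and 7.61. This gap of 0.75 was the largest between readings of the same VC pool among the member probes. The second probe read 6.90 on both. The VC readings of the second probe ranged from 7.36 to 7.40 (1W), 6.78 to 7.03 (2W) and 6.59 to 6.94 (3W), and those of 1W were above those of the later weeks. The MXD 1W readings of 7.78 and 7.90 were above all VC 1W readings, and the N-CE 1W readings of 7.13 and 7.20 were below all of them.

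A list of 19 genes of the versican and hyaluronan matrix showed 1 called higher in MXD 1W, 1 higher and 2 lower in N-CE 1W, 2 higher and 3 lower in MXD 2W, and 0 in the other 3 comparisons. The 3 hyaluronan synthases did not move alike in MXD 2W, as Has3 was higher with 1.09 ± 0.02 and Has1 and Has2 were lower with -1.32 ± 0.18 and -0.95 ± 0.41. In N-CE 1W Has3 was lower with -1.22 ± 0.02 and Has1 was higher with 0.75 ± 0.14. Acan, which encodes aggrecan, was lower there with -1.19 ± 0.22. With normexp and loess the values in N-CE 1W were -0.59 for Has3, 0.26 for Has1 and -0.41 for Acan, of which those of Has1 and Acan did not pass the fold limits, and those of Has1 and Has2 in MXD 2W were -0.45 and -0.56. Tnfaip6, a hyaluronan-binding protein of inflammation, was the gene called in MXD 1W with 0.61 ± 0.01 (0.56 with normexp and loess, under the fold limit). The list median was 0.36 ± 0.01 in MXD 1W, 0.29 ± 0.10 in MXD 2W and -0.20 ± 0.02 in N-CE 1W.

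In MXD 2W, the brightest probe of Prdm1 had the highest mean log2 fold after those of Corin and Inhba, with 0.53 and 0.44 (mean 0.49 ± 0.06). Its P was 0.012 and 0.0331, and it was not called. In N-CE 2W it gave 0.23 and 0.05, at 1W -0.11 ± 0.09 in MXD and -0.06 ± 0.04 in N-CE, and at 3W -0.13 ± 0.04 in MXD. In N-CE 3W 1 of the 2 spots was marked as an outlier and left out, and the other gave -0.19. The VC readings ranged from 9.72 to 10.15 (1W), 10.01 to 10.61 (2W) and 10.73 to 10.91 (3W), so the 3 readings kept at 3W were above those of the other weeks. From the highest mean the order was VC 3W (10.79 ± 0.10), N-CE 3W (10.73, 1 reading), MXD 3W (10.61 ± 0.01), N-CE 2W (10.59 ± 0.34), MXD 2W (10.46 ± 0.14), VC 2W (10.25 ± 0.27), VC 1W (9.89 ± 0.18), MXD 1W (9.88 ± 0.15) and N-CE 1W (9.70 ± 0.07). Neighbors in this order overlapped except N-CE 3W with MXD 3W and MXD 1W with N-CE 1W.

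Crabp1 was below VC in MXD 2W on both arrays, with -0.38 and -0.56 (mean -0.47 ± 0.13). P was 0.0694 and 0.00838, so it passed the fold limit and was not called. The other 5 comparisons had means between -0.15 and 0.21, with both arrays on the same side of 0 in each. The Crabp1 readings of MXD 2W, 7.82 and 7.91, were below all 4 readings of VC 2W, which ranged from 8.13 to 8.38. In VC the readings ranged from 8.97 to 9.24 at 1W and from 7.85 to 8.13 at 3W, with 1W above 3W. Corin, Prdm1 and Inhba had 3W above 1W. The share of all genes with VC readings apart in this way was not counted, so these directions do not set the members apart. The order of the means was VC 1W (9.10 ± 0.12), N-CE 1W (8.96 ± 0.15), MXD 1W (8.93 ± 0.03), N-CE 2W (8.49 ± 0.04), VC 2W (8.30 ± 0.12), MXD 3W (8.24 ± 0.00), VC 3W (8.01 ± 0.13), N-CE 3W (8.00 ± 0.09) and MXD 2W (7.87 ± 0.06), in which N-CE 1W overlapped with VC 1W and with MXD 1W, while both MXD 1W readings lay below all 4 of VC 1W.

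Other genes that handle retinoids were given by a list of 18, of which 17 are on the array. In MXD 2W 3 were called higher and 3 lower of 17 measured. Cyp26a1, which degrades retinoic acid, was higher with 1.2 ± 0.18 (0.48 with normexp and loess, under the fold limit) and Lrat, which esterifies retinol, with 1.19 ± 0.39. Aldh1a1, which makes retinoic acid, was lower with -1.30 ± 0.17. In MXD 1W Aldh1a3 was called higher with 0.71 ± 0.20, and in MXD 3W Lrat was called higher with 0.62 ± 0.00 (0.49 with normexp and loess, under the fold limit). The N-CE comparisons had 0 called genes of this list.

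Sox18 was above VC on both arrays in MXD 1W, with 0.49 and 0.27 (mean 0.38 ± 0.15), and in MXD 3W, with 0.37 and 0.27 (mean 0.32 ± 0.07). In MXD 2W it gave 0.09 and -0.32. The N-CE means were 0.04 ± 0.07 (1W), -0.14 ± 0.23 (2W) and 0.04 ± 0.04 (3W), and 0 of the 6 comparisons was called. The MXD 1W readings of 9.95 and 9.96 were above all other Sox18 readings, as the next group, VC 1W (9.60 ± 0.08), reached 9.70. The remaining groups, from N-CE 1W (9.58 ± 0.11) down to MXD 2W (8.98 ± 0.24), overlapped with their neighbors.

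Sox18 is also a gene of endothelium, and the 14 endothelial markers were all well above background in 24 of 24 channels. In MXD 2W 7 of the 14 were called lower and the list median was -0.59 ± 0.03, with Sox17, a related factor, at -0.88 ± 0.01 and Cldn5, a junction protein, at -0.93 ± 0.21. Their summed signal ranged from 17385.4 to 20162.3 in MXD 2W and from 26212.1 to 31316.1 in the VC of those arrays. In MXD 1W, where Sox18 was highest, the list median was 0.05 ± 0.04 with 0 called. In N-CE 1W it was 0.28 ± 0.01 with 0 called. The part of endothelial RNA in the Sox18 values was not tested.

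The Alpl probe was dim, with a mean processed signal of 69.4 over the arrays. In N-CE 1W it gave -0.96 and -0.47 (mean -0.71 ± 0.34), with P of 0.00472 and 0.21, and with the N-CE pool above background on 1 of 2 arrays. It passed the fold limit and was not called, and normexp with loess gave -0.15 ± 0.15. In MXD 1W it gave -0.60 and -0.05. In each comparison of 2W and 3W the 2 arrays had opposite signs. All Alpl group means lay between 6.37 and 7.02, with the 2 readings of N-CE 3W at 6.44 and 7.40, and only the readings of MXD 2W and N-CE 1W were apart among neighbors in the order. In a list of 9 other genes of phosphate and mineral metabolism, Spp1, which encodes osteopontin, was the single gene called, higher in MXD 1W with 2.15 ± 0.02 and lower in MXD 2W with -1.41 ± 0.42.

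Sox2 was above background only on 1 array of MXD 1W, in the treated pool, where the array gave 0.90 and the array with exchanged dyes gave -0.63. No fold of Sox2 is given in any comparison. Sox2 is also a gene of Merkel cells, and their defining factor Atoh1 was above background in 0 of 24 channels, as was Rab3c. The Merkel cell list had 1 gene called lower in MXD 1W, Cck (-0.74 ± 0.03), and 1 lower in MXD 2W, Isl1 (-1.64 ± 0.28).

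The remaining papilla and sheath genes were described by a list of 36, all on the array. In MXD 2W, 4 of 35 measured were called higher and 5 lower, and the list median was -0.11 ± 0.01. The higher ones were Wnt5a (1.16 ± 0.05), a Wnt ligand, Wif1 (1.06 ± 0.08) and Sfrp1 (0.97 ± 0.49), which bind Wnt ligands, and Pappa (0.83 ± 0.07), a protease of IGF-binding proteins. The lower ones were Igfbp3 (-1.34 ± 0.11), which binds IGF, Frzb (-0.98 ± 0.23) and Dkk2 (-0.83 ± 0.16), which act on Wnt signaling (Frzb -0.37 with normexp and loess, inside the fold limit), Snap91 (-0.94 ± 0.38), and Enpp2 (-0.68 ± 0.07), which encodes autotaxin. In N-CE 1W, 3 of 32 were called lower and 0 higher, and they were Wif1 (-1.24 ± 0.04), Wnt5a (-0.79 ± 0.09) and Pappa (-0.70 ± 0.02), each of which was called higher in MXD 2W.

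In MXD 1W Rspo2 was the single gene of the list called, higher with 0.77 ± 0.12, and in N-CE 2W it was Pappa, higher with 0.64 ± 0.01. With normexp and loess these were 0.43 and 0.55, both under the fold limit. At 3W 0 of 32 were called in either treatment. For Rspo2, N-CE 2W gave 0.60 ± 0.67, with a spread as large as its mean. The list medians in MXD 1W and N-CE 1W were both -0.10, with SDs of 0.11 and 0.08.

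Corin acts on agouti signaling in the follicle and processes a natriuretic peptide in the heart, and 13 genes of these pathways formed a list, of which 12 are on the array. Nppc, which encodes C-type natriuretic peptide, was called higher in MXD 2W with 1.18 ± 0.06 (0.584 with normexp and loess, just under the fold limit of 0.585). Npr3, the clearance receptor of these peptides, was called lower in MXD 1W with -0.73 ± 0.16 and in MXD 2W with -0.87 ± 0.17. Mc1r, the receptor that agouti blocks, was called lower in N-CE 1W. The N-CE pool was above background on 0 of 2 arrays there, so that Mc1r was at least 1.32-fold lower. With normexp and loess it gave -0.406, just inside the fold limit of -0.415. The other comparisons had 0 called genes of the list.

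The matrix cells above the papilla were described by 10 transcription factors and ligands and by 11 hair shaft keratins on the array. In MXD 2W, 9 of 10 matrix regulators were called higher with a list median of 1.15 ± 0.20 (0.88 with normexp and loess), among them Lef1 (1.47 ± 0.08) and Dlx3 (1.36 ± 0.45), and 11 of 11 keratins were called higher with a median of 1.35 ± 0.34. In N-CE 1W, 8 of 10 regulators were called lower with a median of -1.42 ± 0.08 (-0.76 with normexp and loess), among them Msx2 (-2.15 ± 0.19) and Lef1 (-1.92 ± 0.02), and 10 of 11 keratins were called lower with a median of -2.33 ± 0.22. In MXD 1W 0 of 10 regulators and 4 of 11 keratins were called, all higher. In N-CE 2W and at 3W, 0 genes of both lists were called. These lists were chosen with earlier results of these arrays known and are not independent evidence of a direction.

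**Figure D4:**
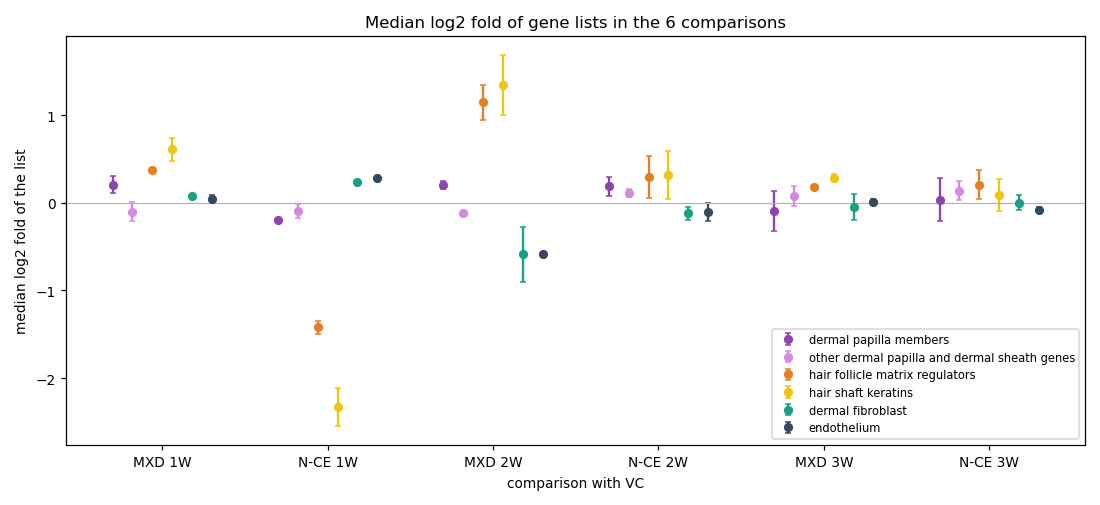
Median log2 fold of treated over VC (vertical axis) of 6 gene lists in the 6 comparisons (horizontal axis), with bars for the SD of the medians of the 2 arrays. The dermal papilla members lie between -0.19 and 0.21 in every comparison, while the matrix regulators lie at -1.42 in N-CE 1W (-0.76 with normexp and loess) and 1.15 in MXD 2W.

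Markers of other skin cells are given here for MXD 2W and N-CE 1W, where a member was called. Such calls were not confined to them, as 4 of 8 measured melanocyte genes were called higher in MXD 1W, where 0 members were called. In MXD 2W, 4 of 10 fibroblast markers were called lower with a median of -0.59 ± 0.32 and a summed signal of 65338.0 to 88663.5 against 125713.3 to 182280.9 in VC, and 9 of 14 cell cycle genes were called higher with a median of 0.88 ± 0.12. Of the 10 skin identity genes 6 were called lower there with a median of -0.92 ± 0.25, among them Flg2 (-1.55 ± 0.25) and Krt10 (-1.43 ± 0.39) of the upper epidermis, whereas Krt5 (0.09 ± 0.46) and Krt14 (-0.05 ± 0.39) of the basal layer were not called. In N-CE 1W, 0 of 10 fibroblast markers were called with a median of 0.24 ± 0.02, and 10 of 14 cell cycle genes were called lower with a median of -1.0 ± 0.06. The part of these cells in the Corin and Inhba values was not tested.

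A test across samples was possible only with the 3 weeks standing in for replicates. By the moderated test of limma, adjusted after Benjamini and Hochberg over all probes tested, 0 of 30175 probes (0.00%) passed an adjusted p of 0.05 for MXD, 0 of 30369 (0.00%) for N-CE and 0 of 31576 (0.00%) for MXD minus N-CE, with 2707, 846 and 1909 probes under an unadjusted p of 0.05. The member with the lowest adjusted p from limma was Vcan by its second probe in MXD, with a mean over weeks of 0.45 (95% interval 0.03 to 0.87) and an adjusted p of 0.548. For Corin the mean was 0.53 (-0.13 to 1.19) in MXD and -0.75 (-2.36 to 0.86) in N-CE, where the 1W fold came from a pool below background. With normexp and loess the Corin means were 0.31 (-0.14 to 0.76) and -0.15 (-0.54 to 0.23), and their difference was 0.46 (0.08 to 0.84) with an adjusted p of 0.725 from limma. Without that correction, the difference of MXD and N-CE for Corin was 1.28 (-0.16 to 2.72) with an adjusted p of 0.745 from limma, and for Inhba it was 0.16 (-0.35 to 0.67) with 0.875. These intervals are wide and hold differences of more than 0.58 on the log2 scale for both genes, so they do not show that the treatments act alike. On simulated data the fit recovered 48 of 200 probes shifted by 1.5 for MXD, 128 for N-CE and 0 for the difference.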

How the data were processed

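Whole back skin of C57BL/6J mice was measured on 12 two-colour Agilent arrays. The authors scanned the arrays and deposited the output of Feature Extraction, recorded as version 12.0.3.1 in the file headers and 11.0.1.1 in the submitters' processing notes. The authors obtained the log10 ratio (Cy5 over Cy3) of a spot from background-subtracted signals normalized between dyes by LOWESS. A p-value per spot, deposited with it, follows the software's error model. The signal intensity per channel was deposited raw and processed. The matrix of the series equals log10 of the processed ratio within 5.0e-09. Array precision is limited by their number.

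Control and outlier-marked spots were left out, log2 ratios were expressed as treated over VC, spots of a probe were averaged, and the dye swap was averaged as 1 replicate. Calls used the limits stated in the methods. Calculations used Python 3.11.15, numpy 2.4.6, pandas 2.3.3, R 4.3.3 and limma 3.58.1. Channel levels used normexp with an offset of 50, loess and Aquantile. A group below background on both arrays gives a bound, taken against the lowest signal above background or the probe's own level, whichever was higher. For Corin in N-CE 1W this was its own level.

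The members and the 21 gene lists were chosen with earlier results of these data known. Named genes were the members, the 2 called genes with the largest change per list and comparison, and the 3 genes most like each called member. Fstl1, Acvr1c, Has1, Has2, Sfrp1, Frzb, Dkk2, Snap91, Enpp2, Sox17, Mc1r, Krt5, Krt14 and Dppa3 were named after their values were seen. On simulated data the calls recovered 187 to 194 of 200 probes shifted by 1.5. The 0 false calls there were fixed in advance, since unshifted probes had opposite signs on the 2 arrays. They give no rate of false calls. Coordinates of probes are on mm9, those of promoters on GRCm38.p6. The alternatives tried are given at the end.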

Additional observations from a re-analysis of the deposited data

Results flagged for a closer look

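For 3 called member probes, both arrays of another week or of the other treatment lay on the other side of VC. Corin differed by -2.99 on the log2 scale between N-CE 1W (-2.44) and MXD 1W (0.55), which share the VC pool. As the N-CE 1W pool was below background on both arrays, the size of this difference is not a measured one, and normexp with loess gave -0.58 and 0.25. Inhba differed by 1.02 between MXD 2W (0.62) and MXD 3W (-0.41). The second Vcan probe differed by 1.11 between MXD 1W (0.70) and N-CE 1W (-0.40), which share the VC pool. These differences were not tested, since each group is 1 pool.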

How the results depend on the processing

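Of the member folds, 6 of 43 had another sign on the Cy5 array alone, 4 of 42 on the Cy3 array alone and 3 of 43 with normexp and loess, and with the mean over all probes of a gene, the outlier-marked spots or the matrix values 0 of 43 had. The called members changed more. In N-CE 1W, 0 members were called when both groups had to be above background on both arrays, and 2 with the fold alone (Corin and Alpl). In MXD 2W the fold alone gave 3 (Corin, Crabp1 and Inhba), and normexp with loess, which has no P and was read by the fold alone, gave Corin and not Inhba. Of 192 calls in the other gene lists, 176 passed the fold limits with normexp and loess, a count added after seeing the data. On single arrays of a dye swap the count of called members ranged from 0 to 1 in MXD 1W, from 1 to 2 in N-CE 1W, from 1 to 2 in MXD 2W and from 0 to 2 in N-CE 2W, and was 0 at 3W. The array with the treated pool in Cy3 alone added Corin in MXD 1W and 2W, Crabp1 in MXD 2W, and Corin and Alpl in N-CE 2W, and that with it in Cy5 alone added Alpl in N-CE 1W. The Inhba call of MXD 2W was not made on the Cy3 array alone. The member median of N-CE 1W was -0.15 with normexp and loess, -0.15 with the stricter filter and -0.23 with the mean over probes. That of MXD 2W was 0.13 with normexp and loess and 0.38 with the mean over probes. On single arrays the median ranged from 0.12 to 0.26 in MXD 1W, from -0.21 to -0.18 in N-CE 1W, from 0.22 to 0.28 in MXD 2W, from 0.0595 to 0.22 in N-CE 2W, from -0.16 to 0.16 in MXD 3W and from -0.18 to 0.16 in N-CE 3W. The limma counts were 0 under the alternatives run, each week left out included, except for MXD with week and slide as a random block, where 1 probe passed (Dppa3, no member, higher). The causes were not tested. No paired analysis was possible because every sample has replicate number 1, and pairing was by week only, in the limma difference and the random block.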

Other observations

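Pigment cell, blood cell and muscle genes, which are no papilla genes, were also measured. Of 9 melanocyte genes, 9 were called higher in MXD 2W (median 1.24 ± 0.13), 6 in MXD 3W and 4 in MXD 1W, and 6 of 8 measured were lower in N-CE 1W (median -1.80 ± 0.20). With normexp and loess 1 of the 9 in MXD 2W gave 0.37, under the fold limit. In N-CE 2W and 3W 1 was called higher each, Oca2 (0.72 ± 0.11) and Mlana (0.63 ± 0.05), and 9 of 9 were above 0, with medians of 0.45 ± 0.02 and 0.50 ± 0.10. Values for Tyrp1, an enzyme of melanin synthesis, were 1.38 ± 0.11 in MXD 2W and -2.02 ± 0.12 in N-CE 1W. Of 8 neutrophil genes measured in MXD 1W, 4 were called higher, among them S100a8 (2.89 ± 0.00) and S100a9 (2.51 ± 0.14), which encode the subunits of calprotectin. With normexp and loess the other 2 gave 0.36 and 0.42, under the fold limit. S100a8 was also called higher in MXD 2W (0.96 ± 0.10), and S100a9 in N-CE 1W (1.09 ± 0.03). Of 8 macrophage genes 4 were called lower in MXD 2W, among them Mrc1 (-0.87 ± 0.03), a scavenger receptor. Skeletal muscle genes were called lower in MXD at all weeks, 6, 10 and 3 of 10, and 1 in N-CE 2W, with Ttn, the giant sarcomere protein, at -1.80 ± 0.51 in MXD 2W. Of 7 sebaceous gland genes measured, 5 were called lower in MXD 2W and 1 in MXD 1W. Of 7 Schwann cell genes 2 and of 6 plasma cell genes 2 were called lower in MXD 2W, and 1 plasma cell gene, Jchain, was lower in both treatments at 3W (-0.94 ± 0.20 in MXD and -0.98 ± 0.01 in N-CE).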
